A study of Mus musculus with 115 samples.

Results

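Neurod1, Neurod2, Neurod6, Sox4, Sox11 and Dcx, 6 of the 22870 genes counted, are neuronal transcription factors and a microtubule protein of developing excitatory neurons. Neurod1, Sox4, Sox11 and Dcx are used to recognise young granule neurons of the dentate gyrus, and Neurod2 and Neurod6 are relatives of Neurod1. The 6 were chosen by name, and their counts were read in each cell as CPM (the gene's share of all gene counts in that cell, times 1000000). The data are single granule cells of Rbp4-Cre mice, each sampled by drawing its cytosol into a patch pipette. A retrograde virus, retroAAV-EGFP, had been placed in the opposite ventral hippocampus, and a cell with EGFP is one whose axon reached that side. The recorded side had received a Cre-dependent mCherry virus, AAV.cDIO-mCherry, with either saline or kainic acid (KA), an agonist of glutamate receptors used to set off seizures. Sampling followed after 2 weeks, whether or not a cell showed mCherry. All groups carry the same Cre line and both viruses, and they are 27 saline EGFP- cells, 5 saline EGFP+ cells, 36 KA EGFP- cells and 27 KA EGFP+ cells. The design text gives 9 mice for KA EGFP+ cells and 3 for each other group, and no label names the mouse of a cell, so each group counts as 1 sample. It also states 57 passing saline EGFP- cells, of which 27 were analysed here, and the numbers it states for the other groups match. No test between groups was made, and every SD and interval below is over cells or counts, not over mice.

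New granule cells arise in the dentate gyrus throughout life and pass through a short young stage before they join the circuit. In that stage the SoxC factors Sox4 and Sox11 and the bHLH factor Neurod1 switch on neuronal genes, and doublecortin, the product of Dcx, binds microtubules in growing processes. As the cell matures, Dcx and Sox11 are lost and calbindin, the product of Calb1, appears. Neurod2 and Neurod6 are bHLH factors of the same family as Neurod1 that stay on in excitatory forebrain neurons. Seizures are known to alter the birth of granule cells and to change the levels of maturity genes in cells that are already old.

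In the GRCm38 annotation all 6 genes lie on the minus strand. Neurod1 is at chr2:79452521-79456751, Neurod2 at chr11:98325415-98329648 and Neurod6 at chr6:55677822-55681263, each with 2 exons after merging transcripts. Sox4 at chr13:28948919-28953713 and Sox11 at chr12:27334264-27342574 have 1 exon each, and Dcx at chrX:143855842-143933311 has 7. The libraries carry no strand information. In Sox4, 2616 exonic bases (54.6%) also belong to Gm26735, a lincRNA on the other strand. Reads there could be counted for either gene, split or lost, so Sox4 may be counted too high or too low. Cerkl shares 7.37% of the exonic length of Neurod1 on the same strand, and the lincRNA Gm26755 shares 5.64% on the other. Reads in these parts could also be counted for either gene, split or lost.

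The stretches before the start of the 3 members found in most cells and of Dcx are given, so that widely found members can be read beside the standard marker of the young stage. Capitals mark CATATG and CAGATG, 2 forms of the E-box that bHLH factors such as Neurod1 bind, and TATAAA, the TATA box. The sequences are from RefSeq on GRCm38.p6, read 5′ to 3′ on the minus strand, and hold no base of the annotated gene. They span chr2:79456752-79456886 for Neurod1, chr11:98329649-98329895 for Neurod2, chr12:27342719-27342968 for Sox11 and chrX:143933312-143933469 for Dcx.
Neurod1: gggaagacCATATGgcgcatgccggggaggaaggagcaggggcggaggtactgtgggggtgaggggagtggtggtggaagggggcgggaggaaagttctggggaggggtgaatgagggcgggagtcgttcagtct
Neurod2: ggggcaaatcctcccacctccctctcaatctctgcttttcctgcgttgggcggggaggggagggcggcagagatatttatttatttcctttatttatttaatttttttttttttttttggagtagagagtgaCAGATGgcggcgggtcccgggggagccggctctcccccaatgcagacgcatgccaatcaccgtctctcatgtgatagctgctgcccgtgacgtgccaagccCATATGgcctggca
Sox11: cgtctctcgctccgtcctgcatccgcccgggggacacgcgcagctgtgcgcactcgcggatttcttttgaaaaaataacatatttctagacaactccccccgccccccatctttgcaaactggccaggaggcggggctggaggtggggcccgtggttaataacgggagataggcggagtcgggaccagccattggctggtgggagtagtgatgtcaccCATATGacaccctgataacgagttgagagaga
Dcx: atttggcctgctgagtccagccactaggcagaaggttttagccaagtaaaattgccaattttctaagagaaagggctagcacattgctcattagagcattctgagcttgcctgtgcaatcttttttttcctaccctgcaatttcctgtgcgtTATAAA
On either strand of the 250 bases before the RefSeq start, CATATG was found once each in Neurod1, Neurod2 and Sox11 and not in Neurod6, Sox4 or Dcx. Among 32851 mouse promoters, 3.46% hold it. CAGATG was found in Neurod2 alone of the 6 and in 14.4% of all promoters, and TATAAA in Dcx alone and in 12.4%. These matches describe the letters only.

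Depth in the 95 cells ran from 1277978 to 56183007 counts (median 5221619), and genes with a count from 1469 to 9945. The median number was 4448 for saline EGFP- and 4325 for saline EGFP+ cells, and 5698.5 for KA EGFP- and 6231 for KA EGFP+ cells. Sample titles are numbered in a first series, 1 to 48, which holds KA cells alone, and a second series of higher numbers, which holds every saline cell and 18 KA cells. KA EGFP- cells of the first series had a median of 6974 genes, and those of the second 3707. The quality-control labels disagree with the deposited table of kept cells: 13 of the 95 kept cells are labelled failed, and 12 of the 20 left-out cells are labelled passed. The granule cell marker Prox1 reached 10 CPM in 63 of the 95 cells and Calb1 in 73. Microglial markers made up under 0.1% of the counts in 62 cells. Their summed level was 5279.7 to 49986 CPM in the 5 saline EGFP+ cells, where 16 of 16 markers had a count.

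The 6 members fell into widely and rarely detected genes in these cells. After each cell was thinned to 1000000 counts, Neurod2 had a count in 72 of 95 cells (75.8%), Sox11 in 67 (70.5%) and Neurod1 in 48 (50.5%). Sox4 had a count in 23 cells (24.2%), Dcx in 11 (11.6%) and Neurod6 in 5 (5.26%). Per kilobase of exon, the mean level over all cells was 31.9 CPM for Neurod2 (SD 46.4, n = 95 cells), 24.7 for Neurod1 (SD 42.5) and 21.1 for Sox11 (SD 32.6). It was 2.89 for Sox4 (SD 10.4), 0.460 for Dcx (SD 2.10) and 0.437 for Neurod6 (SD 2.19). Each SD exceeds its mean, and whether neighbours in this order differ within cells was not tested. Most cells with a count were well above the floor: of the cells with any count, 17.3% held Neurod1 below 10 CPM, 14.9% Neurod2 and 14.5% Sox11, against 40% for Sox4 and 46.2% for Dcx.

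**Figure D1:**
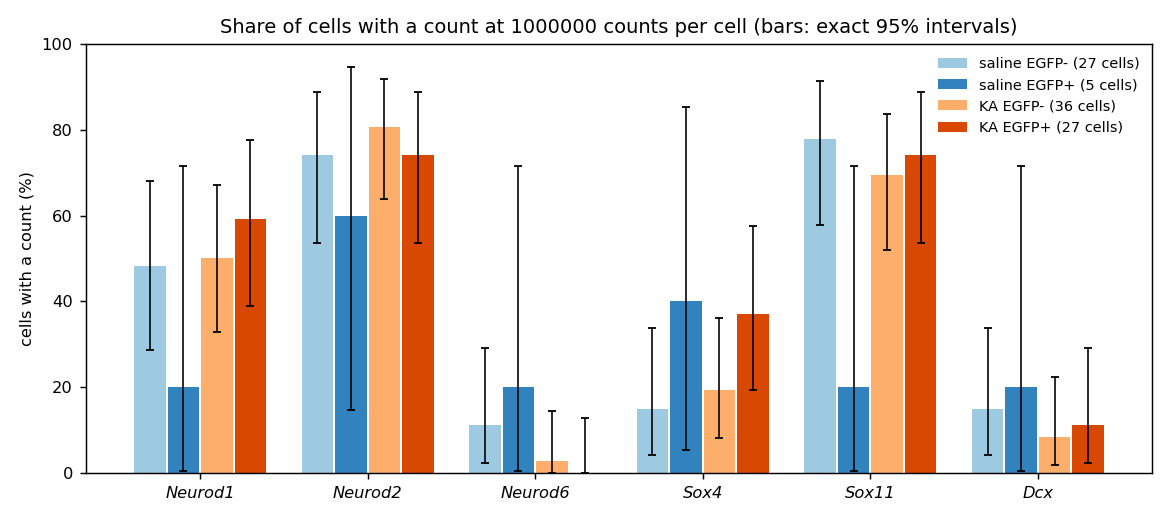
Share of cells with at least 1 count of each member after thinning to 1000000 counts per cell (percent, y axis), for the 4 groups of treatment and EGFP class. Bars on the columns are exact 95% Clopper-Pearson intervals, which treat cells as independent. Neurod2 and Sox11 stand at 69.4% to 80.6% in the groups other than saline EGFP+, whereas Dcx stays at 8.33% to 20%.

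Neurod1, which drives granule cell precursors toward the neuronal state, ranged from 0 to 523 CPM in saline EGFP- cells (median 0.342) and from 0 to 403 in KA EGFP- cells (median 1.98). In KA EGFP+ cells it ranged from 0 to 524 CPM with a median of 19.5. Counts were present after thinning in 48.1% of saline EGFP- cells (exact 95% interval 28.7 to 68.1), 50% of KA EGFP- cells (32.9 to 67.1) and 59.3% of KA EGFP+ cells (38.8 to 77.6). The groups overlap over nearly their whole range, with cells at 0 and cells above 100 CPM in each of these 3 groups. Among the 5 saline EGFP+ cells, cell 3 had 98.1 CPM and the other 4 had none.

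Neurod2, a bHLH factor of maturing excitatory neurons, had the highest median level per kilobase of the 6 in saline EGFP- cells (35.8 CPM per kilobase). Its level there was 0 to 817 CPM (median 113), against 0 to 424 (median 39.3) in KA EGFP- and 0 to 284 (median 30.1) in KA EGFP+ cells. Counts were found in 74.1%, 80.6% and 74.1% of the cells of these groups after thinning, with 20 of 21 KA EGFP- cells in the first series and 9 of 15 (60%) in the second, the series of all saline cells. In the saline EGFP+ cells Neurod2 stood at 266.6 CPM in cell 3, 84.5 in cell 5, 0.782 in cell 7 and 0 in cells 4 and 6.

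Sox11, a SoxC factor that precedes and accompanies Dcx in young neurons, was present in most cells here, and cells with none occurred in each group. It ranged from 0 to 776 CPM (median 63.9) in saline EGFP- cells, 0 to 1137 (median 67.4) in KA EGFP- cells and 0 to 954 (median 84.4) in KA EGFP+ cells. Its thinned share was 77.8% (57.7 to 91.4), 69.4% (51.9 to 83.7) and 74.1% (53.7 to 88.9). The 5 saline EGFP+ cells differed from this: cell 5 had 19.9 CPM, cell 6 had 0.725, and cells 3, 4 and 7 had 0.

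Sox4, the other SoxC factor, was at 0 in most cells of every group and high in a few. The highest cell reached 114 CPM in saline EGFP-, 15.9 in saline EGFP+, 49.8 in KA EGFP- and 403 in KA EGFP+ cells, with a median of 0 in all 4. Its thinned share was 14.8% (4.19 to 33.7), 40% (5.27 to 85.3), 19.4% (8.19 to 36.0) and 37.04% (19.4 to 57.6), and these intervals overlap. Of all Sox4 counts in KA EGFP+ cells, 53.3% came from cell 27.

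Dcx, the standard marker of the young stage, had no count in most cells of every group. It had a count in 5 of 27 saline EGFP-, 1 of 5 saline EGFP+, 4 of 36 KA EGFP- and 3 of 27 KA EGFP+ cells. The highest cells were at 141, 0.782, 40.3 and 200.2 CPM in the same order. Neurod6, a factor of pyramidal rather than granule neurons in the adult, had a count in 3 saline EGFP- cells, 1 saline EGFP+ cell and 1 KA EGFP- cell. It was at 0 in all 27 KA EGFP+ cells, which allows a share of up to 11.1% by the rule that a count of 0 allows 3 (the exact interval ends at 12.8%). Of those 5 cells, saline EGFP- cells 20, 31 and 34 and saline EGFP+ cell 7 carried 25468 to 53766 CPM of summed microglial markers, and KA EGFP- cell 13, at 23.8 CPM of Neurod6, carried 206.9. The part of these other RNAs in the Neurod6 counts was not tested.

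**Figure D2:**
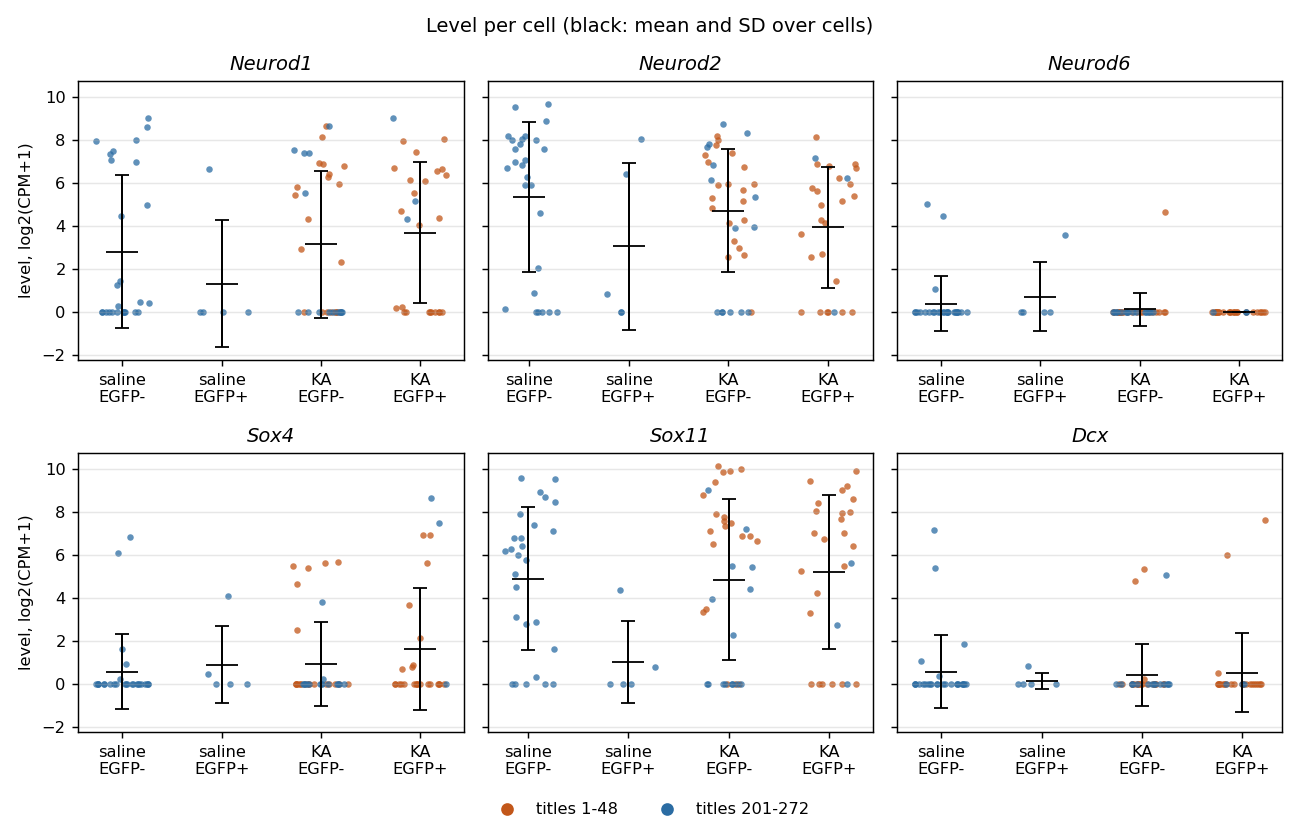
Level of each member in each of the 95 cells as log2(CPM+1) (y axis), by group, with orange for the first title series and blue for the second. Horizontal black lines are means and vertical ones the SD over cells. Neurod1, Neurod2 and Sox11 spread from 0 to above 8 within a group, whereas most cells are at 0 for Neurod6, Sox4 and Dcx.

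KA was compared with saline in EGFP- cells to see how the genes of the young stage stand in cells without EGFP. On the scale of mean log2(CPM+1), Neurod1 was 3.15 (SD 3.42, n = 36) after KA and 2.81 (SD 3.55, n = 27) after saline, a difference of 0.35. Neurod2 was 4.72 (SD 2.87) against 5.36 (SD 3.48), a difference of -0.64, and Sox11 was 4.86 (SD 3.76) against 4.90 (SD 3.31), a difference of -0.04. All 3 differences are smaller than the SD over cells, and none of the 3 passed 1 in size. Of 9752 genes with a count in at least 25% of the cells of either group, 28.9% were higher by at least 1 in KA cells and 10.1% lower, and the median difference was 0.45. Neurod6, Sox4 and Dcx had counts in fewer cells than that, and their differences were -0.26, 0.35 and -0.16. Of the 14 measured microglial markers, 12 were lower by at least 1 in these KA cells. Without the cells at 0.1% or more of microglial counts, Neurod1 differed by -0.59, Neurod2 by -0.57 and Sox11 by -0.22, so the direction turned for Neurod1.

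All saline cells belong to the second series, and within it the comparison gave other values. Against the saline cells, in the 15 KA EGFP- cells of that series, Neurod1 was lower, with a difference of -0.37, the opposite direction to the pooled value. Neurod2 differed by -1.45 and Sox11 by -2.38, from 4.90 (SD 3.31) in saline cells to 2.52 (SD 3.14) in KA cells. These 2 of the 3 measured members passed 1 in the lower direction, where 36.6% of 8496 genes did so, 10.1% passed it upward and the median gene was at -0.59. Sox11 had a count in 7 of the 15 KA cells and in 22 of the 27 saline cells, and cells of both kinds were at 0. In this series the KA cells had a median of 3707 genes and the saline cells 4448, and the part of this gap in the differences was not tested.

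The KA EGFP- cells of the first and second series also differed, with Sox11 at the largest value of the 4 measured members. Sox11 was 6.53 (SD 3.28, n = 21) in the first and 2.52 (SD 3.14, n = 15) in the second, a difference of 4.01. Its median level was 164 CPM in the first series and 0 in the second, and 18 of 21 against 7 of 15 cells had a count. Neurod1 (1.22), Neurod2 (1.37) and Sox4 (1.12) were also higher in the first series on this scale. On summed counts Neurod1 and Neurod2 turned direction, with 71.7 against 80.04 CPM and 54.8 against 85.4 CPM in the first and second series. Single cells weigh much in these sums. In the first series, cell 11 held 56183007 counts at 3.97 CPM of Neurod1 and 8.74 of Neurod2. Cell 12 gave 58.5% of the Neurod1 counts of that series. On the mean log2 scale all 4 measured members passed 1 upward, as did 68.2% of 9956 genes, while 1.94% passed it downward and the median gene was higher by 1.55. Neurod1, Neurod2 and Sox4 therefore lie below the median gene, and Sox11 at the percentile of 96.2 lies above most genes. The series differ in genes per cell, as given above, and 11 of 13 measured microglial markers were lower by at least 1 in the first. Without cells at 0.1% or more of microglial counts, Sox11 differed by 4.35. Spearman's rho between Sox11 and genes per cell was 0.32 over all 95 cells, 0.42 over the 63 KA cells of both series and 0.08 over the 45 KA cells of the first. The part of depth in the difference was not tested.

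The comparison of EGFP+ with EGFP- cells after KA asks how cells labelled from the other side differ from unlabelled cells. A cell without EGFP is not shown to lack an axon to that side. Over all titles, Neurod1 was 3.69 (SD 3.28, n = 27) in EGFP+ cells, higher by 0.54, and Sox4 was 1.63 (SD 2.83), higher by 0.70. Sox11 was 5.20 (SD 3.58), higher by 0.34, and Neurod2 was 3.95 (SD 2.81), a difference of -0.77. None of the 4 measured members passed 1, which 15.9% of 10105 genes passed upward and 3.98% downward. The direction turned for 3 members within titles 1-48, where Neurod1 differed by -0.28, Sox4 by -0.24, Sox11 by -1.04 and Neurod2 by -1.41. There, 6.49% of genes passed 1 upward and 19.3% downward, with 2 of the 4 members among the latter. Microglial markers were higher by at least 1 in EGFP+ cells for 11 of 13 over all titles and 14 of 14 in titles 1-48. Without the cells rich in them, the differences over all titles were 0.50 (Neurod1), -0.97 (Neurod2), 1.56 (Sox4) and 0.46 (Sox11).

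EGFP+ cells alone have titles 1 to 19, so the closest setting is titles 20-48, with 5 EGFP+ and 21 EGFP- cells. In it Sox11 stood at 43.6, 203.8, 528, 599.9 and 18.2 CPM in EGFP+ cells 20 to 24, and from 0 to 1137 (median 164) in EGFP- cells. The members differed by 0.31 (Neurod1), -0.23 (Neurod2), 0.16 (Sox4) and 0.61 (Sox11), and none passed 1, where 16.8% of genes did upward and 29.2% downward. The second series holds only 3 EGFP+ cells. Cell 27 had 524 CPM of Neurod1 and 403 of Sox4, cell 29 had 19.3 and 180, and cell 26 had 34.9 and 0. Against the 15 EGFP- cells, Neurod1 was higher by 3.74 and Sox4 by 5.11, and these 2 of the 4 members passed 1 upward, as did 40.1% of 9136 genes, with 19.7% downward. The difference between the classes therefore has no single direction across titles for Neurod1, Sox4 and Sox11, and for Neurod2 it was negative in each setting except the second series (0.56).

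**Figure D3:**
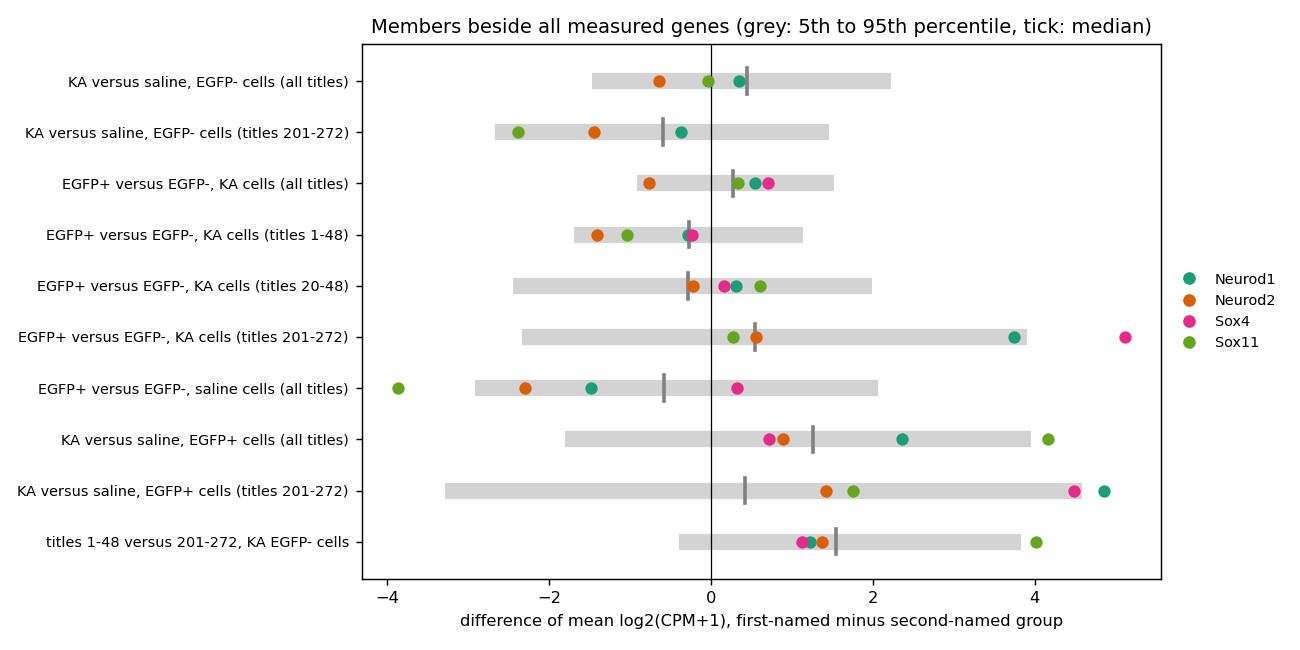
Difference of mean log2(CPM+1) (x axis) for each measured member in each comparison and title range (y axis), beside all measured genes (grey band from the 5th to the 95th percentile, tick at the median). Sox11 lies outside the band in the comparison of saline EGFP+ with EGFP- cells (-3.87), in that of KA with saline EGFP+ cells (4.16) and between title series (4.01), and inside it in KA against saline EGFP- cells. Sox4 (5.11) and Neurod1 (4.86) pass the band in settings with 3 KA EGFP+ cells.

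Comparisons with the 5 saline EGFP+ cells rest on few and unusual libraries. In saline, Sox11 was 1.03 (SD 1.90, n = 5) in EGFP+ and 4.90 (SD 3.31, n = 27) in EGFP- cells, a difference of -3.87, and Neurod2 and Neurod1 differed by -2.30 and -1.48. Sox4 differed by 0.32, or by -0.47 without cell 3. Leaving out cell 3 also moved Neurod1 to -2.81 and Neurod2 to -3.55, and Neurod2 was -1.53 without cell 4 or cell 6. So 3 of the 4 measured members passed 1 downward, where 39.4% of 8884 genes did and 15% passed it upward. Each of these 5 cells holds the microglial RNA given above, and without such cells none is left, so its part was not tested.

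The comparison of KA with saline EGFP+ cells uses the same 5 cells. Sox11 was higher by 4.16 after KA, Neurod1 by 2.36, Neurod2 by 0.89 and Sox4 by 0.72. Here 2 of 4 members passed 1 upward, as did 56.8% of 10301 genes, and 10.5% passed it downward. Leaving out saline EGFP+ cell 3, the only one with Neurod1, moved Neurod1 to 3.69, Neurod2 to 2.14 and Sox4 to 1.51. The Neurod2 value was 0.12 without cell 4 or cell 6 and 0.33 without cell 7. Sox11 stayed between 3.90 and 5.00 whichever of the 5 cells was left out. Within the second series, the 3 KA cells gave 4.86 (Neurod1), 1.41 (Neurod2), 4.48 (Sox4) and 1.76 (Sox11), all 4 past 1, where 40.4% of 9716 genes passed it upward and 25.5% downward. The 16 measured microglial markers were all lower by at least 1 after KA in either setting.

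The members were also read together in each cell, with a member counted as present at 10 CPM or more. A cell held on average 2.01 of the 6 (SD 1.15, n = 95), and no cell held more than 4. The mean was 1.93 in saline EGFP-, 1.20 in saline EGFP+, 2.06 in KA EGFP- and 2.19 in KA EGFP+ cells, with SDs of 1.24, 1.30, 1.17 and 1.00. The commonest sets were Neurod2 with Sox11 (17 cells), Neurod1 with Neurod2 and Sox11 (11 cells) and none of the 6 (11 cells).

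Neurod2 was present in 33 of the 43 cells with Neurod1 and in 57.7% of the cells without it. Of the cells with Neurod1, 10 of 10 saline EGFP-, 1 of 1 saline EGFP+, 13 of 16 KA EGFP- and 9 of 16 KA EGFP+ cells also held Neurod2. Of the cells without Neurod1, 52.9%, 25%, 60% and 72.7% held it in the same order, and the differences between groups were not tested. Of the 15 cells with Sox4, 13 also held Sox11, as did 57.5% of the cells without Sox4, and 11 held Neurod1. Across the 45 KA cells of titles 1-48, Spearman's rho between Sox4 and Sox11 was 0.51, against 0.23 over all 95 cells, which differ in depth and series. Sox4 was present in 15 and Dcx in 7 of the 95 cells, and they were present together in 0. At such low numbers a joint count of 0 shows little. Of the 7 cells with Dcx, 6 held Neurod1, which was present in 43 of all 95 cells.

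The central question was whether any cell, after KA in particular, carried the joint profile of a young neuron. The profile asked for Dcx, Sox11 and at least 1 more gene of a panel of 10 (Dcx, Sox11, Igfbpl1, Eomes, Calb2, Neurog2, Draxin, Insm1, Nhlh1 and St8sia2) at 10 CPM, with Calb1 below 10 CPM. It was met by 0 of 95 cells, which by the same rule allows a share of up to 3.16%. That limit treats cells as independent and covers only cells that meet the profile. It does not bound young cells whose panel genes went undetected, since only 5 of the 10 panel genes reached 10 CPM in any cell. For KA EGFP- cells the count was 0 of 36 (up to 8.33%) and for KA EGFP+ cells 0 of 27 (up to 11.1%). The count was also 0 with 1 count in place of 10 CPM, at 100 CPM, in all 115 cells, without the condition on Calb1, and with any 3 panel genes in place of Dcx and Sox11.

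Sox11 was the panel gene found most often, in 59 of the 95 cells at 10 CPM. In all, 29 cells had none of the panel at 10 CPM, 56 had 1, 9 had 2 and 1 had 3. The cell with 3 was a saline one, saline EGFP- cell 32, with 139 CPM of Sox11, 66.1 of Calb2, 215.6 of St8sia2, 125 of Neurod1 and 286 of Neurod2. Its Calb1 level was 292 CPM and its Dcx level 0, so it missed the profile on both. Among KA cells none had more than 2 panel genes.

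The other panel genes were close to absent. Igfbpl1, Eomes, Neurog2, Draxin and Insm1 reached 10 CPM in 0 of 95 cells, Nhlh1 in 1 and St8sia2 in 3. Calb2, which encodes calretinin and marks the young stage in mouse granule cells but also mossy cells and interneurons, reached 10 CPM in 5 saline EGFP- and 2 saline EGFP+ cells. It did so in 0 of the 36 KA EGFP- and 0 of the 27 KA EGFP+ cells. The cells that reached it were saline EGFP- cells 28 and 31 to 34 and saline EGFP+ cells 6 and 7. They lie close together in title order, in a stretch that holds no KA cell. Saline EGFP- cells 31 and 34 and saline EGFP+ cells 6 and 7 had 0.1% or more of microglial counts. The parts of title order and of microglial RNA in this contrast of saline with KA cells were not tested.

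Dcx reached 10 CPM in 7 cells, 5 of them after KA. KA EGFP+ cells 8 and 6 had 200.2 and 64.1 CPM, and KA EGFP- cells 19, 35 and 5 had 40.3, 32.98 and 27.1. Saline EGFP- cells 27 and 6 had 141 and 41.1 CPM, so the saline cells lie within the range of the KA cells. All 7 also expressed Calb1 at 87.6 to 1679 CPM and Rbfox3, which encodes the neuronal protein NeuN. They held 6 to 11 of 14 genes of mature granule cells (median 9), where all cells had a median of 8. Sox11 was present in 4 of the 7 and Sox4 in 0. Prox1 and C1ql2 each reached 10 CPM in 5 of the 7, and KA EGFP- cell 35 had both at 0. Each of the 7 cells with Dcx thus also held Calb1 and Rbfox3, and Calb1 was present in 73 of all 95 cells.

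**Figure D4:**
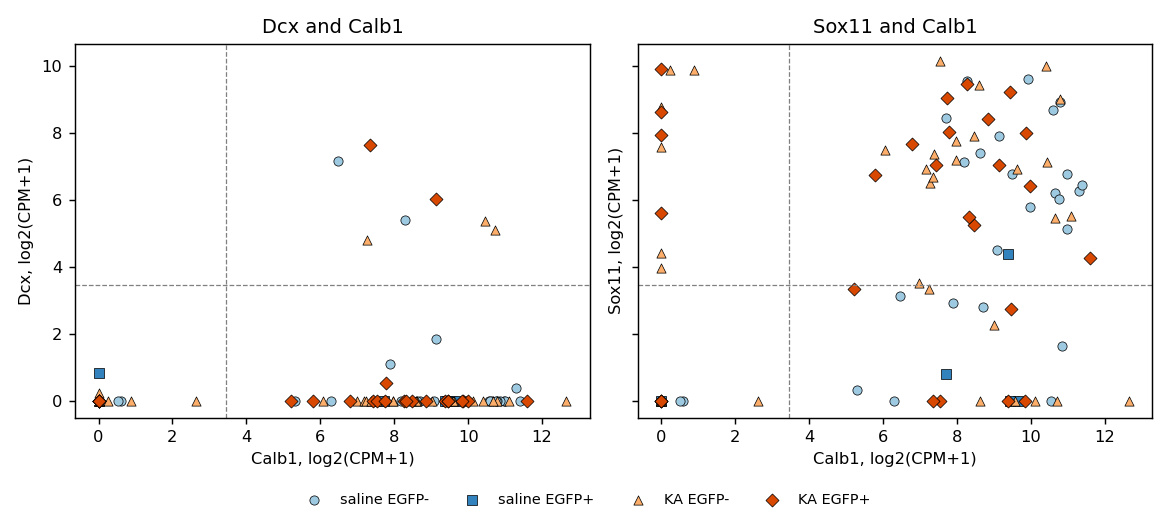
Level of Dcx (left) and Sox11 (right) against Calb1 in each cell, all as log2(CPM+1), with symbols for the 4 groups and dashed lines at 10 CPM. The upper left field, where a young neuron would lie, is empty for Dcx and holds 10 cells for Sox11, all of them KA cells. Few saline cells could lie there: of the 22 cells with low Calb1, 2 were saline EGFP- and 1 saline EGFP+. Sox11 reached 10 CPM in 10 of these 22 cells and in 49 of the other 73.

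Calb1 below 10 CPM was found in 22 cells: 2 of 27 saline EGFP-, 1 of 5 saline EGFP+, 12 of 36 KA EGFP- and 7 of 27 KA EGFP+ cells. Of these 22, 10 held Sox11, 6 of them KA EGFP- and 4 KA EGFP+ cells, and 0 held Dcx at 10 CPM. Of the other 73 cells, 49 held Sox11 and 7 held Dcx, so Sox11 was not more frequent where Calb1 was low. In saline EGFP- cells, all 17 cells with Sox11 had Calb1 at 10 CPM or more. After KA this held for 17 of 23 EGFP- cells with Sox11 and 14 of 18 EGFP+ cells. The low-Calb1 cells had fewer genes (median 3791.5) than the other 73 cells (median 5896).

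Of the 22 cells with low Calb1, 12 were KA EGFP- and 7 KA EGFP+ cells. Sox4 was at 10 CPM or more in 6 of the 22, all of them KA cells, and in 9 of the other 73 cells. These 6 are described, a choice made after their values were seen. KA EGFP+ cell 27 had 524 CPM of Neurod1, 403 of Sox4, 75.1 of Neurod2 and 850.4 of Prox1, and no Sox11. KA EGFP+ cell 29 had 179.8 CPM of Sox4, 48.3 of Sox11 and 19.3 of Neurod1. It had no Neurod2, Prox1 or C1ql2, which is a secreted synaptic protein of mature mossy fibres. KA EGFP+ cell 19 had 954 CPM of Sox11, 121 of Sox4, 19.5 of Neurod1, 16.7 of Neurod2 and 5.81 of Prox1. All 3 of these EGFP+ cells had Calb1 and C1ql2 at 0. KA EGFP- cell 2 had 438 CPM of Sox11, 24.4 of Sox4 and 216.96 of Neurod2, and no Neurod1, Calb1, Prox1 or C1ql2. KA EGFP- cells 15 and 17 had 947 and 940 CPM of Sox11, 40.9 and 49.8 of Sox4, and 419 and 881 of C1ql2. Cell 15 also had 285.7 CPM of Neurod1, 157.4 of Neurod2 and 340.1 of Prox1. Cell 17 had 38.4 CPM of Neurod2 and no Neurod1 or Prox1. Each of the 6 cells had Dcx at 0, and 5 of them held Sox11.

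**Figure D5:**
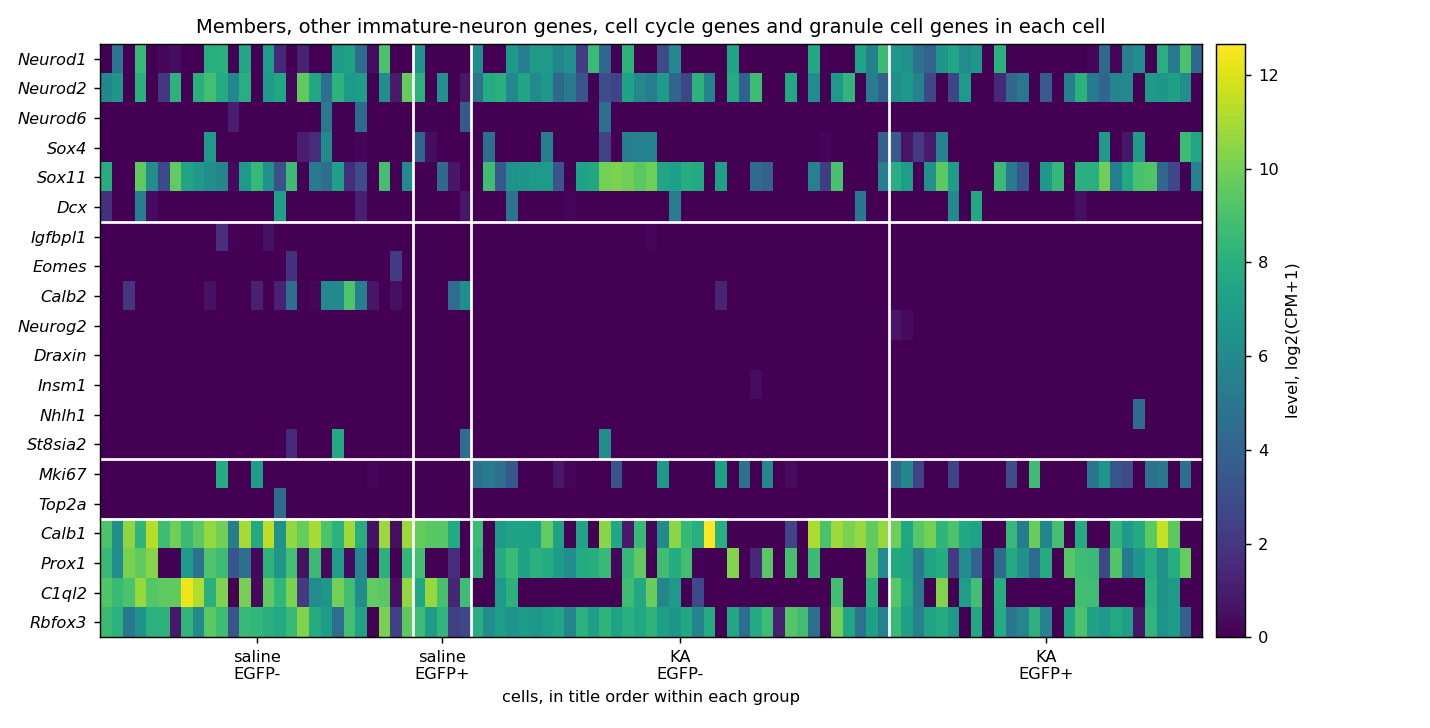
Level, as log2(CPM+1) by colour, of the members, the other panel genes, 2 cell cycle genes and 4 genes of mature granule cells or neurons (rows) in each of the 95 cells (columns, in title order within groups). Sox11, Neurod1 and Neurod2 are scattered over the groups, Neurod6 is seen in 5 cells, and the rows from Igfbpl1 to St8sia2 are nearly empty. Calb2 reaches 10 CPM only in saline cells that lie close together in title order.

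Genes of dividing cells were read beside the members, since young neurons follow division. Mki67, a marker of cycling cells, reached 10 CPM in 18 cells: 8 KA EGFP-, 8 KA EGFP+ and 2 saline EGFP- cells. Among those 18 Top2a, Cdk1 and Ccnb1, which act in mitosis, were present in 0, and Pcna, a replication clamp, in 9. Calb1 was present in 12 of them and Dcx in 1. Among progenitor and cell cycle genes, Pcna reached 10 CPM in 36 of the 95 cells, Hopx in 19, Mki67 in 18, and Nes, a gene of neural progenitors, in 6. Mcm2 did so in 3 cells, Cdk1 and Ccnb1 in 2 each, Top2a, Hes5 and Pax6 in 1 each, and Sox2 and Tfap2c in 0. The cell with Top2a was saline EGFP- cell 27, at 22.4 CPM, which is also one of the 7 cells with Dcx.

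Other genes of the same programmes were read from lists in KA against saline EGFP- cells. A list of 17 neurogenic transcription factors also holds Prox1, the granule cell marker named above, so it is not confined to young neurons. Of the 17, 5 were measured. Of these, 3 were lower by at least 1 and 0 higher, where 10.1% of all measured genes were lower and 28.9% higher. Bcl11b (-2.82), Bhlhe22 (-1.54) and Sox12, also a SoxC gene (-1.30), were those 3, and within the second series they differed by -3.65, -2.08 and -1.76. The list's median was -1.30, against 0.45 for all measured genes, and -1.77 against -0.59 within that series. Within that series 5 of the 5 were lower by at least 1, as were 36.6% of all measured genes. Beside these, Neurod1 and Sox11 had differences of 0.35 and -0.04 over all titles and of -0.37 and -2.38 within the second series.

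Of 14 further genes of young neurons, 9 were measured, with 3 higher by at least 1, 3 lower and 3 within 1 (median 0.20), beside 28.9% of all measured genes higher and 10.1% lower. Stmn1, which destabilises microtubules, stood at 3.04 (SD 3.27) after KA and 6.37 (SD 2.75) after saline, a difference of -3.33, and of -3.63 within the second series. Marcksl1 differed by -1.83, and by -3.86 within that series. Tubb3, a neuronal tubulin, was higher by 2.94 over all titles and differed by -0.06 within the second series. Of the partners and relatives of Dcx on microtubules, 8 of 9 were measured, and 2 were higher by at least 1 and 0 lower (median 0.12), a share close to the 28.9% of all measured genes. These were Dclk1, the doublecortin-like kinase, at 8.99 against 7.42 (1.58), and Tuba1a (1.27), with 0.41 and 0.35 within the second series.

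Of 14 genes of mature granule cells, 13 were measured, with 6 lower by at least 1 in KA EGFP- cells, 1 higher and a median of -0.81, where 10.1% of all measured genes were lower and the median gene was at 0.45. The largest differences were those of C1ql2 (-5.96), Stxbp6 (-4.79) and Plk5 (-3.33). Within the second series, 10 of the 13 were lower by at least 1, with a median of -2.46, beside 36.6% of all measured genes and a median of -0.59.

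By Spearman's rho over the 95 thinned cells and 11282 genes, the genes most like each member were, for Neurod1, Rrp7a (0.46), Grsf1 (0.44) and Mrps5 (0.44). For Neurod2 they were Rgs7bp (0.44), Cebpb (0.42) and Smarcd1 (0.42), and for Sox4 Zc4h2 (0.47), Krt222 (0.46) and Capn15 (0.45). For Sox11 they were Rnf165 (0.50), Mettl17 (0.49) and Vma21 (0.48), and for Dcx, with counts in 11 thinned cells, P2ry14 (0.47), Ttc21b (0.45) and Adam8 (0.44). All points share the title series and genes per cell, with which the likeness genes correlate at up to 0.60 (Grsf1), so these values describe the table only. No member was among the 3 genes most like another member.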

How the data were processed

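Single granule cells were sampled by patch pipette and sequenced from Nextera XT libraries, per the labels. The submitters' processing notes name kallisto, featureCounts, STAR and Trimmomatic and the build GRCm38, with roles and versions not given in the sources used here. The authors deposited read counts by gene symbol, in a table of every cell (115 analysed here) and a table of the 95 cells that their quality control kept. The authors also deposited a normalized signal for the kept cells, which served only as an alternative scaling. Groups come from the labels. Kept cells were taken from the deposited table, because the quality labels disagree with it: each of the 20 left-out cells follows a title labelled failed, and 0 kept cells do.

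From the counts, CPM over all genes (92 spike-in rows left out), log2(CPM+1), and counts thinned to 1000000 per cell were computed with Python 3.11.15, numpy 2.4.6, pandas 2.3.3 and scipy 1.17.1. Genes with a count in at least 25% of the cells of either group were measured, and a difference of at least 1 on the log2 scale was counted. Each group of cells is a single sample of unknown mice, so no test was run. Counting and binomial intervals are exact at 95%. The former cover counting error only, and the latter treat cells as independent. Reads carry no molecular barcodes. The comparison script recovered known fold changes in counts simulated for well-counted genes from a shared profile, with no added spread between cells. This checks the calculation only, since the cells here spread far more. The members and gene lists were chosen with earlier results of these data known. Genes named are the members, the 3 genes most like each member found in at least 10 cells, and the 3 measured genes of a list with the largest difference between KA and saline EGFP- cells. A gene or cell named outside this rule was chosen after its values were seen. Alternatives covered the scaling, pseudocount, summed counts, thinning, cell choice, single cells left out and title series. A listed gene is not reported here.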

Additional observations from a re-analysis of the deposited data

Results flagged for a closer look

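In the 12 checks for a cell far from the others of its group, made for the 6 members in the 5 saline EGFP+ cells and in the 5 KA EGFP+ cells of titles 20-48, 7 values, in 4 cells, stood apart on the log2(CPM+1) scale. Chance flags about 1 in 20 such groups, and a gene at 0 in all cells but 1 is flagged by construction. Among saline EGFP+ cells these were Neurod1 at 6.63 and Sox4 at 4.08 in cell 3, Sox11 at 4.38 in cell 5, and Neurod6 at 3.58 and Dcx at 0.83 in cell 7. Among the KA EGFP+ cells, cell 22 had Neurod2 at 0 and Sox4 at 6.95.

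The 20 cells left out by the authors' quality control were read for signal above that of the kept saline cells. Neurod1 reached 609 CPM in saline EGFP- cell 1, against at most 523 in kept saline cells. Sox4 reached 719 CPM in saline EGFP- cell 14, against at most 114 in kept saline cells. Depth in the cells left out was 474183 counts at the median.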

How the results depend on the processing

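Of 379 recomputed values for the members' comparisons, detection, number per cell and joint young profile, 370 moved by less than the spread over cells (for a share, its 95% interval). This spread is wide, so the rule lets large shifts pass and is a weak check. Sox11 in KA against saline EGFP- cells, with SDs of 3.76 and 3.31, went from -0.04 to -2.38 within the second series and is among the 370. Of the 348 differences between groups or series recomputed, 32 changed sign, 30 of these within that spread, so the direction of a small difference is not settled. For Sox11 in KA against saline EGFP- cells the sign changed under 4 alternatives, up to 1.17 with all cells of the unfiltered table. The other 9 values follow, and the cause was not tested. With the log2 ratio of summed counts, in which deep cells weigh more, the first against second series of KA EGFP- cells gave -0.16 for Neurod1 and -0.63 for Neurod2, the reverse of 1.22 and 1.37. The same ratio for Dcx was 1.95 for EGFP+ against EGFP- KA cells, -2.68 for EGFP+ against EGFP- saline cells and 3.61 for KA against saline EGFP+ cells. These Dcx sums rest on few cells. Cell 8 gave 84.0% of the Dcx counts of KA EGFP+ cells, and cell 19 gave 64.4% of those of KA EGFP- cells. Cell 27 gave 86.1% of those of saline EGFP- cells, and the saline EGFP+ cells held 1 Dcx count in all. Within the second title series, Sox4 gave 5.11 and 4.48 in the comparisons of KA EGFP+ cells with KA EGFP- and saline EGFP+ cells. Neurod6 was detected in 1.61% of the 62 cells under 0.1% of microglial counts (an alternative chosen after seeing the data), and Sox4 in 15.8% of cells at 10 CPM.

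With each saline EGFP+ cell left out in turn, the difference from saline EGFP- cells ran from -2.81 to -1.15 for Neurod1, -3.55 to -1.53 for Neurod2, -0.39 to 0.50 for Neurod6, -0.47 to 0.55 for Sox4, -4.71 to -3.61 for Sox11 and -0.59 to -0.38 for Dcx. The difference of KA from saline EGFP+ cells ran from 2.03 to 3.69, 0.12 to 2.14, -0.89 to 0, 0.49 to 1.51, 3.90 to 5.00 and 0.32 to 0.53 for the same genes.

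No paired analysis was possible because the replicate numbers only name cells and no result comes from a test. No saline EGFP+ cell is under 0.1% of microglial counts, so those comparisons have no value without such cells. The spread between mice is unknown, and depth limits what a count of 0 shows.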
